A study of Mus musculus with 4 samples.

Results

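The 10 genes described here encode enzymes that modify or cross-link collagen: the lysyl oxidases Lox, Loxl1, Loxl2, Loxl3 and Loxl4, the prolyl 4-hydroxylase alpha subunits P4ha1, P4ha2 and P4ha3, and the lysyl hydroxylases Plod1 and Plod2. They were taken by symbol from a deposited expression table of 23997 gene symbols, and each of the 10 had 1 row. The samples were 2 libraries of Asxl1-/- and 2 of wild-type (WT) mesenchymal stem/progenitor cells (MSPC), the adherent stromal cells grown from mouse bone marrow. Both groups were on a C57BL/6 background, were used at passages 5 to 10 and grew in MesenCult medium with 20% supplement, with replating at 80 to 90% confluency. Asxl1 encodes a chromatin protein that binds the deubiquitinase BAP1, and the series title asks what its loss does to self-renewal and fate of these cells. Neither the ages of the mice nor the number of animals behind each group is given by the labels, and p-values therefore describe the spread of these samples, which may be technical. The deletion is labelled only as Asxl1-/-, with no promoter, Cre line or cell type.

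These enzymes act at successive steps on the same substrate. In the endoplasmic reticulum, prolyl 4-hydroxylases hydroxylate proline residues of the collagen chains, which stabilizes the triple helix, and lysyl hydroxylases hydroxylate lysine residues that later form cross-links and carry sugars. After secretion, the copper-dependent lysyl oxidases oxidize lysine and hydroxylysine residues to aldehydes, which react with neighbouring chains to form the covalent cross-links of collagen and elastin fibres. Prolyl and lysyl hydroxylases need iron, 2-oxoglutarate and ascorbate, and bone marrow stromal cells and their osteoblast descendants are major producers of the collagen they modify.

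Levels are given in FPKM, fragment numbers scaled to transcript length and to the mapped fragments of the library, so that genes can be compared within a library. FPKM summed to between 497274 and 703662 per library. WT replicate 2 stood apart, with the highest sum and 40.9% of it in rows spanning under 300 bp, against 21.4% to 24.9% in the other 3 libraries. With libraries scaled by median ratios instead, the log2 differences of the 10 genes kept their signs. Between 10946 and 11359 genes per library reached 1 FPKM. The number of reads is unknown, but low values moved in steps of 1 read, which put the depth of the other 3 libraries at 0.956 to 1.03 times that of WT replicate 1. Asxl1 itself stood at 0.273 and 0.312 FPKM in the Asxl1-/- libraries, against 14.6 and 11.2 FPKM in the WT libraries, so its levels followed the labels. Of 12 markers of mesenchymal stromal cells, Pdgfrb, Thy1, Cxcl12, Col1a1 and Col1a2 were present in every library, whereas Lepr reached at most 0.0426 FPKM and was listed at 0 in 2 libraries. Nt5e (CD73) stood at 0.493 and 0.507 FPKM in the Asxl1-/- libraries, against 2.31 and 7.19 FPKM in the WT libraries, and Eng (CD105) at 0.906 and 0.571 FPKM, against 10.7 and 0.912 FPKM in WT. Of the 11 tested, none passed the adjusted test described below, 1 (Nt5e) was lower at an unadjusted p of 0.0231, and the median log2 difference was -0.76. The groups did not overlap for 2 of them with Asxl1-/- higher, Pdgfrb and Cxcl12. They did not overlap for 5 with Asxl1-/- lower, Cd44 and Vcam1 among the 5. In FPKM, Pdgfrb was 103 and 135 in Asxl1-/- and 86.9 and 49.2 in WT. Cxcl12 was 1297 and 947 in Asxl1-/- and 641 and 744 in WT. Ly6a overlapped, with 1059 and 184 in Asxl1-/- and 70 and 276 in WT. So did Pdgfra, with 58.8 and 63 in Asxl1-/- and 80.9 and 4.78 in WT. The 16 macrophage markers summed to 81.5 FPKM in Asxl1-/- replicate 1, of which 72.2 FPKM was Fcer1g, and to 378 FPKM in Asxl1-/- replicate 2, against 7.55 and 564 FPKM in WT replicates 1 and 2. Ptprc (CD45) stood at 0.0074 and 1.16 FPKM in the Asxl1-/- libraries and at 0.0152 and 1.86 FPKM in the WT libraries. In WT replicate 1, 4 of the 16 markers were listed at 0. None of 13 tested macrophage markers passed either, with a median log2 difference of -0.42. The 5 endothelial markers summed to 0.279 and 7.98 FPKM in the Asxl1-/- libraries and to 0.504 and 0.0898 FPKM in the WT libraries. Replicates 2 of both groups were thus the macrophage-rich ones, and the genes below with the larger differences are also given with that split. Its part in the results was not tested beyond these values. In bulk libraries, fewer cells of a type and less RNA per cell cannot be told apart.

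All 10 genes passed the filter for testing (mean FPKM of 1 or more), as did 11481 genes in all. The difference between the groups was taken on log2(FPKM + 1), Asxl1-/- minus WT, and tested with limma with p-values adjusted over all genes tested by the Benjamini-Hochberg method. None of the 10 passed an adjusted p of 0.05 (limma adjusted p between 0.502 and 0.94), where 0% of all genes tested were called higher and 0.0261% lower. Asxl1, the deleted gene, did not pass either (log2 difference -3.41, limma adjusted p = 0.215). Failing this threshold therefore does not show that a gene was unchanged. At an unadjusted limma p under 0.05, 3 of the 10 were higher (Loxl1, Loxl2 and P4ha2) and 1 was lower (P4ha3), against 2.51% and 5.41% of all genes tested, or 7.92% in either direction. The groups did not overlap, with Asxl1-/- higher, for 6 of the 10 (Lox, Loxl1, Loxl2, P4ha1, P4ha2 and Plod1), against 15.6% of all genes tested, and with Asxl1-/- lower for 2 (Loxl4 and P4ha3), against 25.2%. The median log2 difference of the 10 was 0.357, and that of all genes tested was -0.073. The 10 genes were chosen with earlier results of these data known, so these counts beside the shares are a description and no test of an excess. With 2 libraries against 2, an exact two-sided permutation test cannot go below 0.333, so values per library carry the description.

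**Figure D1:**
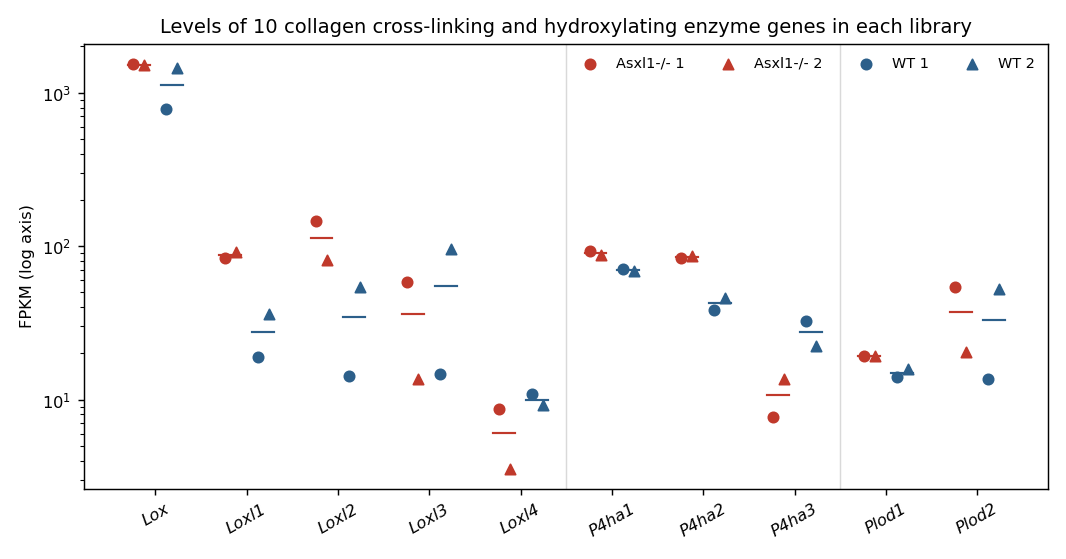
FPKM (log axis) of the 10 enzyme genes in each library, with Asxl1-/- libraries in red and WT libraries in blue. Circles are replicates 1, triangles replicates 2 and short lines group means. Both red points lie above both blue points for 6 genes and below them for Loxl4 and P4ha3, while for Loxl3 and Plod2 the colours mix.

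Lox was by far the most abundant of the 10 in every library. Lox (mm10 chromosome 18, 52516060 to 52529867), the founding member of the family and an oxidase of collagen and elastin lysines, stood at 1532 and 1503 FPKM in the Asxl1-/- libraries, against 783 and 1452 FPKM in the WT libraries. It ranked 52 of 11481 genes by mean FPKM. The Asxl1-/- libraries were close to each other, and WT replicate 2 lay just below them, so the separation of the groups rested on WT replicate 1. The log2 difference was 0.51 with a standard error of 0.39 (limma adjusted p = 0.763), and without WT replicate 1 it was 0.06. Replicates 1, low in macrophage markers, differed by 0.97, and replicates 2, high in them, by 0.05.

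Loxl1 had the smallest adjusted p of the 10 and was the only one marked significant by the authors. Loxl1 (chromosome 9, 58287723 to 58313212), a lysyl oxidase known for its part in elastic fibre upkeep, stood at 83.4 and 91.0 FPKM in the Asxl1-/- libraries, against 19.0 and 35.9 FPKM in the WT libraries. The groups were clearly apart, with means of 87.2 ± 5.41 FPKM in Asxl1-/- and 27.4 ± 12 FPKM in WT (SD, n = 2 each). The log2 difference was 1.70 (95% interval 0.73 to 2.67, limma adjusted p = 0.502), and it ran from 1.26 to 2.14 with 1 library left out. It was 2.08 between replicates 1 and 1.32 between replicates 2. In the authors' deposited table Loxl1 had group values of 109 FPKM in Asxl1-/- and 32.1 FPKM in WT, where the log2 fold change was 1.77 (q = 0.026). That table marks 0.543% of its 12881 tested genes as higher in Asxl1-/- and 0.396% as lower.

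Loxl2 had the largest difference of the 10 and also a wide spread. Loxl2 (chromosome 14, 69609476 to 69695834), a family member with scavenger receptor domains that cross-links basement membrane collagen IV among other substrates, stood at 145 and 80.6 FPKM in the Asxl1-/- libraries, against 14.2 and 54.5 FPKM in the WT libraries. The replicates of WT differed by 3.82 times, with WT replicate 1 far below the other libraries. Its log2 difference was 1.91 with a standard error of 0.71 (limma adjusted p = 0.62). Leaving out WT replicate 1 gave 0.97 and leaving out WT replicate 2 gave 2.84, and it was 3.25 between replicates 1 and 0.56 between replicates 2. In the authors' deposited table the q of Loxl2 was 0.0811, with a log2 fold change of 1.80.

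Loxl3 and Loxl4, the other members with scavenger receptor domains, did not share this direction. Loxl3 (chromosome 6, 83034224 to 83052564) had 58.8 and 13.6 FPKM in the Asxl1-/- libraries, against 14.7 and 95.1 FPKM in the WT libraries. Asxl1-/- replicate 1 and WT replicate 2 were high and the other 2 libraries low, so the groups overlapped. Between the groups the log2 difference was -0.39 with a 95% interval of -3.34 to 2.55 (limma adjusted p = 0.94), and it was 0.92 without WT replicate 2 and 0.62 without Asxl1-/- replicate 2. With the median of each chromosome removed in each library it was -0.18. Exons of Loxl3 overlap those of Htra2 on the other strand, and with the strandedness of the libraries not given, reads of the overlap cannot be told apart. Htra2, a mitochondrial protease gene, stood at 27.4 and 18.4 FPKM in the Asxl1-/- libraries and at 29.7 and 22 FPKM in the WT libraries. The part of the overlap in the values of Loxl3 was not tested. Loxl4 (chromosome 19, 42592279 to 42612806) was the least abundant lysyl oxidase, at 8.66 and 3.55 FPKM in the Asxl1-/- libraries, against 10.8 and 9.25 FPKM in the WT libraries. The Asxl1-/- libraries lay below the WT libraries, the first of them narrowly. Its log2 difference was -0.73 with a standard error of 0.43 (limma adjusted p = 0.697), and it was -0.19 without Asxl1-/- replicate 2.

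**Figure D2:**
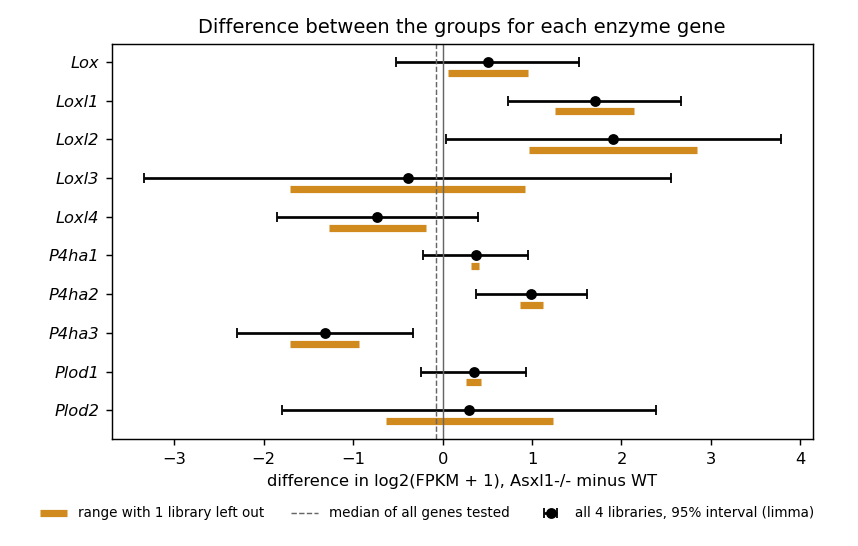
Difference in log2(FPKM + 1), Asxl1-/- minus WT, for each gene. Points and thin bars are the limma estimate and its 95% interval from all 4 libraries, thick bars span the estimates with 1 library left out, and the dashed line is the median of all genes tested (-0.073). Intervals of Loxl1, Loxl2, P4ha2 and P4ha3 leave out 0, and the thick bars of Loxl3 and Plod2 cross it.

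Within the lysyl oxidases, Lox made up 83.8% and 88.8% of the summed FPKM of the family in the Asxl1-/- libraries and 93.0% and 88.2% in the WT libraries. Loxl1 held 4.56% and 5.38% in the Asxl1-/- libraries, against 2.25% and 2.18% in the WT libraries, a close agreement within each group. Its ratio to Lox was 0.0544 and 0.0606 in Asxl1-/- and 0.0242 and 0.0247 in WT. The 2 WT libraries thus lay closer together in this ratio than in the FPKM of Loxl1 alone. Loxl2 held 7.91% and 4.77% in Asxl1-/- and 1.69% and 3.31% in WT, and Loxl3 held 3.22% and 0.804% in Asxl1-/- and 1.74% and 5.77% in WT. Loxl2 was 2.46 and 5.93 times Loxl3 in the Asxl1-/- libraries, and 0.972 and 0.573 times Loxl3 in the WT libraries. The 2 genes were nearly level in WT replicate 1, so Loxl3 stood clearly above Loxl2 only in WT replicate 2.

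The prolyl 4-hydroxylase alpha subunits carry the catalytic site and assemble with the beta subunit P4hb, which is protein disulfide isomerase. P4ha1 and P4ha2 stood higher in the Asxl1-/- libraries and P4ha3 lower, and replicates of P4ha1 and P4ha2 were close to each other. The 250 bases before the RefSeq start of the 3 genes (GRCm38.p6, the build also called mm10, all on the plus strand) are shown because the 3 alpha subunits differed in direction. Capitals mark ACGTG or GCGTG on either strand, the core letters recognized by hypoxia-inducible factors, of which P4ha1 and P4ha2 are known targets.
P4ha1, chr10:59323046-59323295: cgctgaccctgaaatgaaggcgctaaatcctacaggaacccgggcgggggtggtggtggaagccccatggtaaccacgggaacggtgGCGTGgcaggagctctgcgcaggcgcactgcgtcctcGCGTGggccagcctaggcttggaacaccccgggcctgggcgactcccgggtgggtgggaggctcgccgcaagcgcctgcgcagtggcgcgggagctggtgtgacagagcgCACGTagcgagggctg
P4ha2, chr11:54100674-54100923: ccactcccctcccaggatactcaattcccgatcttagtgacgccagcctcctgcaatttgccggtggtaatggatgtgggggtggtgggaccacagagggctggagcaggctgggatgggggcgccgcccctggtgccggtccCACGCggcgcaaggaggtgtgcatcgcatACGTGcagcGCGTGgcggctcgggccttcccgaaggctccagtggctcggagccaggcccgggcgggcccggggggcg
P4ha3, chr7:100285270-100285519: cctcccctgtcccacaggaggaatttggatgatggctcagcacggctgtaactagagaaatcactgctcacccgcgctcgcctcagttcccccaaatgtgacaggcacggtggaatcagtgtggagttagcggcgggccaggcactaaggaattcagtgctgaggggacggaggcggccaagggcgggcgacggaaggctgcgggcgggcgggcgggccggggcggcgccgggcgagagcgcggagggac
P4ha1 held 1 match of ACGTG and 2 of GCGTG, P4ha2 likewise 1 and 2, and P4ha3 none of either. For P4ha2 the GENCODE gene start lies further upstream, at 54100095, so the window shown lies inside that annotated gene. Of 32851 promoters of this length in the RefSeq table, 38.6% held at least 1 match, 16.6% of ACGTG and 28.2% of GCGTG. At least 3 were held by 6.58% (a palindromic CACGTG counts as 2 overlapping matches, and none of the 6 here overlap). The median GC content of those promoters was 52.4%, against 69.6% for P4ha1, 70% for P4ha2 and 67.2% for P4ha3. Shares among promoters of like GC content were not computed. A match describes the letters and not a bound site. The 3 promoters were picked for display after the directions were seen, and a link of matches to direction was not tested. Promoters of 5 of the 10 genes were examined, and besides the 3 shown these were Loxl4 and Plod1, with 1 GCGTG each. Those of the other genes, Lox among them, were not examined, so nothing is said of their matches.

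P4ha1 (chromosome 10, 59323296 to 59373304), the main alpha subunit of most cell types, stood at 93.3 and 87.6 FPKM in the Asxl1-/- libraries, against 70.8 and 69.1 FPKM in the WT libraries. The groups did not overlap, and the replicates of a group differed by at most 1.07 times. Between the groups the log2 difference was 0.37 with a standard error of 0.22 (95% interval -0.22 to 0.96, limma adjusted p = 0.71), and it ran from 0.32 to 0.41 with 1 library left out. Genes of chromosome 10 as a whole had a median log2 level, relative to the mean of the 4 libraries, of 0.0434 and 0.243 in the Asxl1-/- libraries and of -0.292 and -0.0349 in the WT libraries. With the median of each chromosome removed in each library, the log2 difference of P4ha1 was 0.06.

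P4ha2 (chromosome 11, 54100924 to 54131667), the alpha subunit prominent in cartilage and bone cells of the mouse, stood at 83.5 and 85.8 FPKM in the Asxl1-/- libraries, against 38.5 and 46.0 FPKM in the WT libraries. This was the tightest separation of the larger differences, with means of 84.6 ± 1.57 FPKM in Asxl1-/- and 42.3 ± 5.28 FPKM in WT (SD, n = 2 each). The log2 difference was 0.99 with a standard error of 0.23 (95% interval 0.37 to 1.61, unadjusted p = 0.00999, limma adjusted p = 0.519). It ran from 0.87 to 1.12 with 1 library left out, and was 1.10 between replicates 1 and 0.88 between replicates 2. Of all genes tested, 9.9% had an absolute difference at least as large and 10.7% a standard error as small. In the authors' deposited table the log2 fold change of P4ha2 was 1.11 (q = 0.394).

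P4ha3 (chromosome 7, 100285520 to 100319699), the least abundant alpha subunit, stood at 7.65 and 13.7 FPKM in the Asxl1-/- libraries, against 32.7 and 22.3 FPKM in the WT libraries. The groups did not overlap, with means of 10.7 ± 4.25 FPKM in Asxl1-/- and 27.5 ± 7.35 FPKM in WT (SD, n = 2 each). Its log2 difference was -1.31 with a standard error of 0.37 (95% interval -2.30 to -0.33, limma adjusted p = 0.562). It was -1.96 between replicates 1 and -0.67 between replicates 2, and ran from -1.70 to -0.93 with 1 library left out. In the authors' deposited table its log2 fold change was -1.24 (q = 0.478).

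The mix of alpha subunits accordingly differed between the groups, while the share of P4ha1 was similar. P4ha1 made up 50.6% and 46.8% of the summed alpha subunit FPKM in the Asxl1-/- libraries, against 49.9% and 50.3% in the WT libraries. P4ha2 made up 45.3% and 45.9% in the Asxl1-/- libraries, against 27.1% and 33.5% in the WT libraries, and P4ha3 made up 4.14% and 7.30% in Asxl1-/- and 23.0% and 16.2% in WT. P4ha2 was thus nearly level with P4ha1 in Asxl1-/- cells, at 0.895 and 0.979 times its FPKM, and at 0.544 and 0.666 times it in WT cells. P4ha2 was 10.9 and 6.28 times P4ha3 in the Asxl1-/- libraries and 1.18 and 2.06 times P4ha3 in the WT libraries. The beta subunit P4hb stood at 515 and 508 FPKM in the Asxl1-/- libraries, against 419 and 440 FPKM in the WT libraries (log2 difference 0.25, standard error 0.24, limma adjusted p = 0.808). It exceeded the summed alpha subunits by 2.79 and 2.72 times in Asxl1-/- and by 2.95 and 3.2 times in WT.

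**Figure D3:**
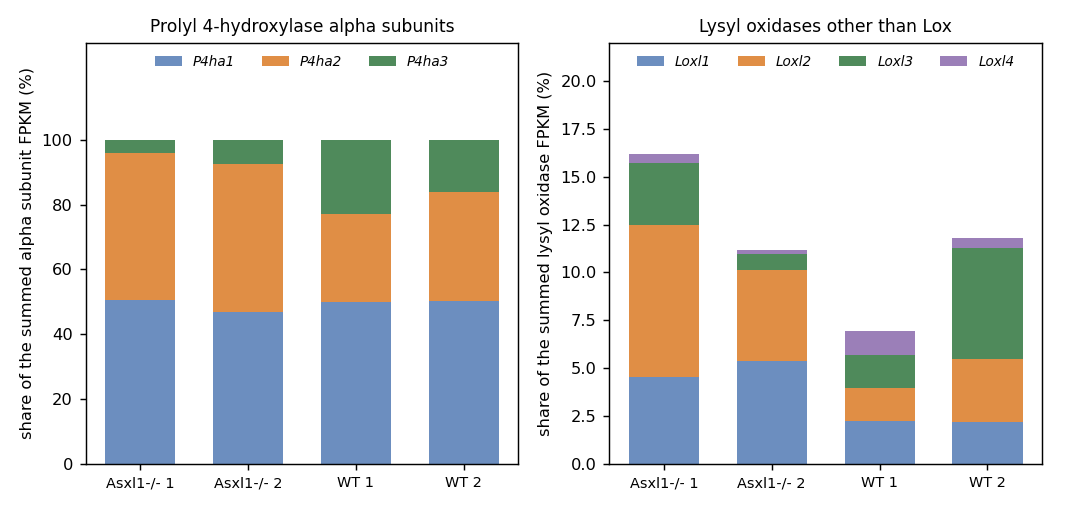
Left, share of each prolyl 4-hydroxylase alpha subunit in the summed FPKM of the 3, in percent. Right, share of Loxl1, Loxl2, Loxl3 and Loxl4 in the summed FPKM of the 5 lysyl oxidases, in percent, with Lox making up the rest. Each bar is 1 library. P4ha2 takes 45.3% and 45.9% in the Asxl1-/- libraries, against 27.1% and 33.5% in the WT libraries, and P4ha3 the smaller part.

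The lysyl hydroxylases gave a small separation for Plod1 and none for Plod2. Plod1 (chromosome 4, 147909753 to 147936776), which hydroxylates lysines of the collagen helix, stood at 19.2 FPKM in both Asxl1-/- libraries, against 14 and 15.9 FPKM in the WT libraries. The Asxl1-/- values were nearly identical and lay above both WT values. The log2 difference was 0.35 with a standard error of 0.22 (95% interval -0.24 to 0.93, limma adjusted p = 0.715), and it was 0.43 between replicates 1 and 0.26 between replicates 2. With chromosome medians removed it was 0.59.

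Plod2 (chromosome 9, 92542223 to 92608427), which hydroxylates lysines of the collagen telopeptides, stood at 54.5 and 20.4 FPKM in the Asxl1-/- libraries, against 13.7 and 52.2 FPKM in the WT libraries. As for Loxl3, Asxl1-/- replicate 1 and WT replicate 2 were high and the other libraries low. Between the groups the log2 difference was 0.30 with a 95% interval of -1.79 to 2.39 (limma adjusted p = 0.936). It was -0.63 without WT replicate 1 and -0.39 without Asxl1-/- replicate 1, so the direction depended on single libraries. Genes of chromosome 9 had a median log2 level, relative to the mean of the 4 libraries, of 0.0376 and -0.114 in the Asxl1-/- libraries and of -0.246 and 0.303 in the WT libraries. With chromosome medians removed the log2 difference was 0.37 for Plod2 and 1.77 for Loxl1, which lies on the same chromosome. Plod3, a lysyl hydroxylase that also adds sugars to hydroxylysine, stood at 60.7 and 48.5 FPKM in the Asxl1-/- libraries and at 57.7 and 50.3 FPKM in the WT libraries.

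The balance of Plod2 and Plod1 varied as much within the groups as between them. Plod2 made up 73.9% and 51.5% of the summed FPKM of Plod1 and Plod2 in the Asxl1-/- libraries, and 49.6% and 76.7% in the WT libraries.

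**Figure D4:**
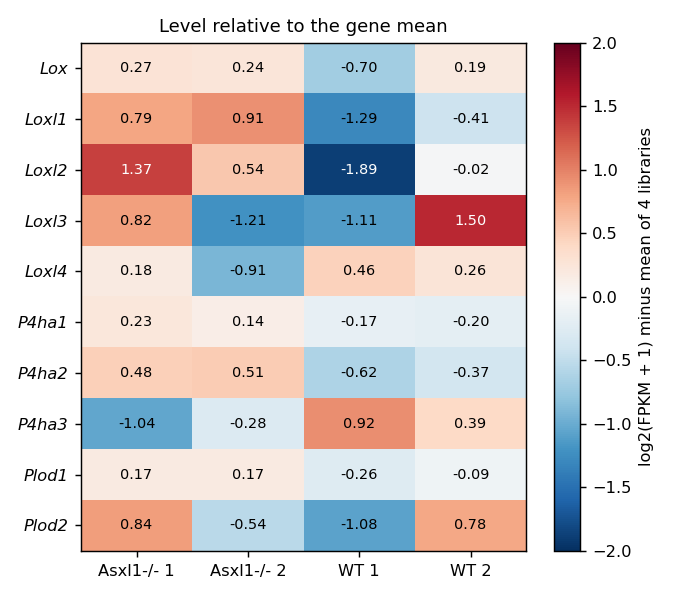
Level of each gene in each library as log2(FPKM + 1) minus the mean of the 4 libraries, in red above and in blue below the mean. Loxl1, Loxl2, P4ha1, P4ha2 and Plod1 are above their mean in both Asxl1-/- libraries and below it in both WT libraries, P4ha3 is the reverse, and Loxl3 and Plod2 are above it in Asxl1-/- replicate 1 and WT replicate 2.

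The order of levels had Lox first in all 4 libraries. In Asxl1-/- replicate 1 it was followed by Loxl2 at 145 FPKM and P4ha1 at 93.3, and in Asxl1-/- replicate 2 by Loxl1 at 91.0 and P4ha1 at 87.6. In WT replicate 1 it was followed by P4ha1 at 70.8 and P4ha2 at 38.5, and in WT replicate 2 by Loxl3 at 95.1 and P4ha1 at 69.1. The lowest was P4ha3 in Asxl1-/- replicate 1 and Loxl4 in the other 3 libraries. In Asxl1-/- cells, P4ha1, Loxl1 and P4ha2 were neighbours in mean FPKM, at 90.4 ± 4.07, 87.2 ± 5.41 and 84.6 ± 1.57 (SD, n = 2 each). The 2 values of Loxl1 overlapped with those of P4ha1 and of P4ha2, while both values of P4ha1 lay above both of P4ha2. In WT cells, too, P4ha1 (70.0 ± 1.21 FPKM) was above P4ha2 (42.3 ± 5.28 FPKM) in both libraries.

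Likeness among the genes was measured as the Euclidean distance between their centred log2(FPKM + 1) values over the 4 libraries, a description of 4 points that share libraries. The nearest pair was P4ha1 and Plod1, at 0.161, and 130 of the other genes tested were nearer still to P4ha1. Both varied little, and lay 0.372 and 0.369 from a gene with equal values in all libraries. Loxl1 was nearest to P4ha2 (0.842, with 95 other genes nearer), Loxl2 to Loxl1 (0.99, with 43 nearer), and Loxl3 and Plod2 to each other (0.997, with 51 genes nearer to Loxl3 and 347 nearer to Plod2). Among the 10 the nearest to P4ha3 was Loxl4, at 1.45, with 5188 genes nearer. A gene with equal values in all libraries would lie 1.47 from P4ha3, so Loxl4 was hardly nearer than that. The nearest of all genes to P4ha3 was Ndrg1, at 0.0444. Ndrg1 stood at 4.77 and 8.81 FPKM in the Asxl1-/- libraries and at 21.8 and 15.2 FPKM in the WT libraries. The nearest genes to the others were Pcdhgc3 for Lox (0.057), Tns1 for Loxl1 (0.205), Slc25a45 for Loxl2 (0.306), Pdk4 for Loxl3 (0.248), Mcf2l for Loxl4 (0.07), Thg1l for P4ha1 (0.0232), Ppm1h for P4ha2 (0.091), D11Wsu47e for Plod1 (0.0419) and Fam124a for Plod2 (0.218).

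The enzyme transcripts were next set against those of their main substrates, the fibrillar collagens Col1a1, Col1a2, Col3a1, Col5a1, Col5a2, Col5a3 and Col11a1. These summed to 3650 and 3869 FPKM in the Asxl1-/- libraries, against 3942 and 5508 FPKM in the WT libraries. Per 1000 FPKM of fibrillar collagen, the lysyl oxidases had 501 and 437 FPKM in the Asxl1-/- libraries, against 214 and 299 FPKM in the WT libraries. Both ratios in Asxl1-/- were above both in WT. The summed lysyl oxidases were 1827 and 1691 FPKM in Asxl1-/-, against 842 and 1647 FPKM in WT. Lox made up 83.8% to 93% of this sum, and the separation of Lox rested on WT replicate 1. WT replicate 2 came close to Asxl1-/- replicate 2 in the sum, and its low ratio went with the highest collagen sum. The alpha subunits had 50.6 and 48.3 FPKM per 1000 in the Asxl1-/- libraries, against 36.0 and 24.9 FPKM in the WT libraries. The lysyl hydroxylases overlapped, with 20.2 and 10.3 FPKM in Asxl1-/- and 7.03 and 12.4 FPKM in WT.

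**Figure D5:**
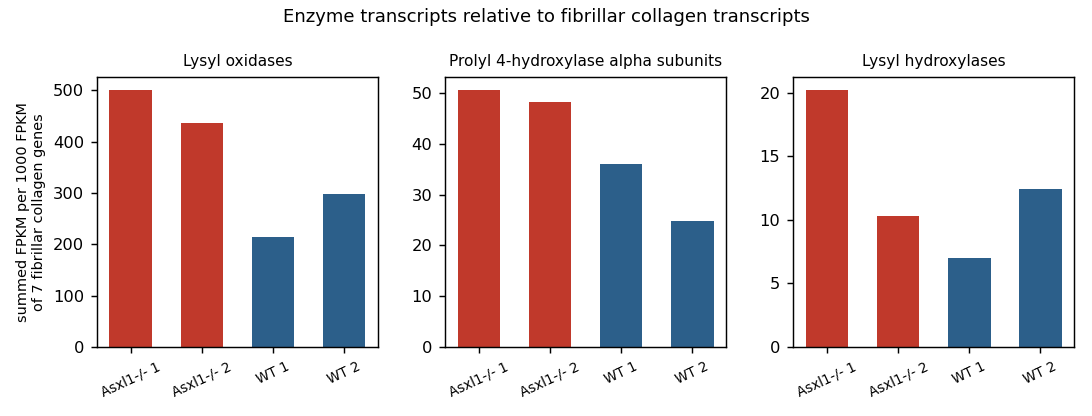
Summed FPKM of each enzyme family per 1000 FPKM of the 7 fibrillar collagen genes, 1 bar per library, with Asxl1-/- in red and WT in blue. The Asxl1-/- bars lie above both WT bars for the lysyl oxidases (501 and 437, against 214 and 299) and the alpha subunits, and overlap with them for the lysyl hydroxylases. Lox makes up 83.8% to 93% of the lysyl oxidase sum.

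The collagens themselves did not move as 1 group. Of 7 tested substrates, none passed the adjusted threshold, 2 had a positive log2 difference and the median was -0.29. Eln (elastin) reached at most 0.189 FPKM and was not tested. At an unadjusted limma p under 0.05, 1 of the 7 was lower, against 5.41% of all genes tested. That 1 was Col11a1, at 0.177 and 7.07 FPKM in the Asxl1-/- libraries, against 53.7 and 13.2 FPKM in the WT libraries (log2 difference -3.18, limma adjusted p = 0.617). Col1a2 stood at 1178 and 1049 FPKM in the Asxl1-/- libraries, against 1564 and 2284 FPKM in the WT libraries, and Col1a1, named after its values were seen, at 1395 FPKM in both Asxl1-/- libraries, against 1298 and 2043 FPKM in the WT libraries. Col3a1 stood at 637 and 738 FPKM in the Asxl1-/- libraries, against 625 and 283 FPKM in the WT libraries.

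No partner of these enzymes in collagen folding and modification passed the test. Of 21 tested, 0 passed at an adjusted or an unadjusted limma p of 0.05, and the median log2 difference was 0.01. The groups did not overlap for 4 with Asxl1-/- higher, against 15.6% of all genes tested, and for 1 with Asxl1-/- lower, against 25.2%. The 5 with the smallest p were Mia3, Leprel1, Fkbp14, Sec24d and Fkbp9. Mia3, which loads procollagen into large carriers, stood at 34.7 and 33.9 FPKM in the Asxl1-/- libraries, against 22 and 27.9 FPKM in the WT libraries. Serpinh1, the collagen chaperone also called Hsp47, stood at 515 and 703 FPKM in the Asxl1-/- libraries, against 511 and 455 FPKM in the WT libraries, and is named after its values were seen.

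Of 10 tested genes that process procollagen or pro-lysyl oxidase or dock the enzymes in the matrix, none passed the adjusted threshold, and the median log2 difference was 0.23. Fn1 (fibronectin), which binds Lox, was the only one with an unadjusted limma p under 0.05, where 5.41% of all genes tested were lower. It stood at 833 and 1127 FPKM in the Asxl1-/- libraries, against 1515 and 2048 FPKM in the WT libraries (limma adjusted p = 0.628). Thbs1, Fmod, Bmp1 and Pcolce had the next smallest p. Bmp1, the protease that cleaves pro-lysyl oxidase and procollagen, stood at 139 and 56.5 FPKM in the Asxl1-/- libraries, against 37.9 and 66.7 FPKM in the WT libraries. As for Loxl3 and Plod2, Asxl1-/- replicate 1 and WT replicate 2 held its highest values.

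Among 10 tested genes listed for the supply of copper, ascorbate, iron or 2-oxoglutarate, none passed at either threshold and the median log2 difference was -0.28. Slc23a2, the ascorbate transporter of most tissues, stood at 11.7 and 6.82 FPKM in the Asxl1-/- libraries, against 19.5 and 13.7 FPKM in the WT libraries (log2 difference -0.80, limma adjusted p = 0.632). Tfrc, Slc33a1, Idh2 and Slc2a1 followed by p, of which Slc33a1 encodes an acetyl-CoA transporter and supplies none of these cofactors. The copper pump Atp7a, which loads the lysyl oxidases, stood at 6.02 and 7.69 FPKM in the Asxl1-/- libraries, against 6.90 and 4.22 FPKM in the WT libraries, and is named after its values were seen. The 5 other 2-oxoglutarate hydroxylases listed, Egln1, Egln2, Egln3, P4htm and Hif1an, had a median log2 difference of 0.21, and none passed.

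Since P4ha1, P4ha2, Plod1, Plod2, Lox and Loxl2 are known hypoxia-induced genes, 17 tested genes of that response were set beside them. None passed the adjusted threshold, and the median log2 difference was 0.14. At an unadjusted limma p under 0.05, 1 was higher and 1 lower, against 2.51% and 5.41% of all genes tested. The groups did not overlap for 3 with Asxl1-/- higher, against 15.6% of all genes tested, and for 2 with Asxl1-/- lower, against 25.2%. The peptide hormone gene Adm (higher) and Ndrg1 (lower) were the 2 with an unadjusted p under 0.05. Pfkfb4, Eno1 and Ankrd37 followed by p. Adm stood at 147 and 94.7 FPKM in the Asxl1-/- libraries, against 12.8 and 27.5 FPKM in the WT libraries. The glycolytic Pgk1 and the growth factor gene Vegfa, named after their values were seen, overlapped between the groups, at 645 and 324 FPKM in Asxl1-/- and 514 and 421 FPKM in WT for Pgk1, and at 45.6 and 25.1 FPKM in Asxl1-/- and 54.8 and 31.9 FPKM in WT for Vegfa.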

How the data were processed

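RNA libraries of 2 Asxl1-/- and 2 WT cultures were grouped by the genotype label, with replicates numbered in accession order, so that a number pairs no samples. Per the submitters' processing notes, the authors' tools were Cuffdiff, Cufflinks 2.2.1 and TopHat2 2.0.3, with the mm10 build. Nothing in the sources used here states the annotation, the kit or the strandedness. The deposited FPKM table holds 24487 rows, and where a symbol had several (260 symbols) the row with the highest mean was kept. A further 2 of its sample columns match no label of the series and were not used. A deposited log table was not used. Per the file headers, the authors' deposited Cuffdiff table gives group FPKM, a log2 fold change, a p-value and a q-value of a group named KO2 against a group named WT2. Its group FPKM are scaled differently. File starts are printed with 1 added, since 4 of the 10 starts plus 1 equalled a GENCODE M21 gene start and 0 did so as given.

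FPKM are not counts, so limma (version 3.58.1, R version 4.3.3; lmFit, eBayes with a variance trend) was run on log2(FPKM + 1) of the 11481 genes whose mean FPKM was 1 or more, after a check on simulated data. Fold changes on this scale are understated for low genes. Exons of 4 of the 10 genes (Lox, Loxl2, Loxl3 and Plod2) overlap those of another GENCODE gene. Values of lists, shares and ratios are descriptions without a test. The genes and lists were chosen with earlier results of these data known. The text names all 10 genes, P4hb, Plod3, up to 5 genes with the smallest p of each list, the nearest gene by profile, and others as stated. Cell type markers, such as Thy1, Eng, Vcam1, Lepr and Ptprc, were also named outside this rule. Alternatives were pseudocounts of 0.1 and 0.5, a mean FPKM of 5 or no filter, quantile normalization, median ratio scaling, 2 other variance models, no rows under 300 bp, chromosome medians removed and each library left out. Counts of groups that do not overlap without a library, and 1 library against 1, were added after seeing the data. Tables and figures were made with matplotlib 3.10.9, numpy 2.4.6 and pandas 2.3.3 in Python 3.11.15.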

Additional observations from a re-analysis of the deposited data

How the results depend on the processing

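None of the 10 genes passed the adjusted threshold in any of 14 alternatives, in which the lowest limma adjusted p was 0.417. Under these and the 2 added comparisons of 1 library with 1, 8 of the 10 kept the sign of their log2 difference. Loxl3 changed sign, from -0.39, to 0.92 and 0.62 without WT replicate 2 and Asxl1-/- replicate 2 (lowest -1.70, without WT replicate 1), and to 1.93 between replicates 1. Plod2 changed sign, from 0.30, to -0.63 and -0.39 without WT replicate 1 and Asxl1-/- replicate 1 (highest 1.23, without WT replicate 2), and to -1.31 between replicates 2. Over all genes tested, 0 were called higher and 3 lower. Without a filter 1 was called lower and without rows under 300 bp 0 were. With 1 library left out, 0 to 4 genes were called higher and 1 to 6 lower, where the lone library of a group is assumed to vary like the other group. The cause was not tested. The scalings moved the median log2 difference of all genes from -0.07 to at most 0.02. Both Asxl1-/- libraries, or the one left, lay above WT for 6 or 7 of the 10 with 1 library left out (28% to 31% of all genes tested) and below it for 2 or 3 (37.9% to 45.3%). Set against Col1a1 and Col1a2 alone, the excess of Asxl1-/- over WT per 1000 FPKM of collagen was 364 FPKM for the lysyl oxidases and 33.4 FPKM for the alpha subunits. With the 7 collagens it was 213 and 19 FPKM. The denominator of 2 genes is smaller, at 2573 and 2445 FPKM in the Asxl1-/- libraries, against 2862 and 4326 FPKM in the WT libraries. Its part in the sum of the 7 was also smaller in both Asxl1-/- libraries than in either WT library. No paired analysis was possible because replicate numbers were given in accession order. The read depth of each library is unknown, so no counting error can be given.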
